A study of Mus musculus with 4 samples.

Results

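The genes described here are 9 regulators of transcription in meiotic and haploid male germ cells, namely Mybl1, Tcfl5, Rfx2, Sox30, Spz1, Crem, Fhl5, Taf7l and Tbpl1. They were listed by name as regulators known from spermatogenesis, but with earlier results of these data known, so the list is not independent of the data. All 9 were found among the 21936 genes of the count table. Their mRNAs were measured in RNA that was recovered by immunoprecipitation (IP) from germ cells of adult C57BL/6 mouse testes. TSSK2-IP used an antibody against TSSK2, a testis-specific serine kinase of elongating spermatids found in the late chromatoid body (late-CB), a cytoplasmic granule of RNA and protein, and control IgG-IP used mouse IgG. In both groups, which had 2 libraries each, the cells had been cross-linked with paraformaldehyde and sonicated, and the pellet fraction was used. The comparison asks which mRNAs were recovered with TSSK2 beyond the level recovered with IgG. It concerns mRNA abundance in an IP and measures neither the protein nor the activity of a regulator.

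In male meiosis and after it, germ cells replace many general transcription factors with versions that are made in the testis. Transcription stops when the chromatin of the elongating spermatid is compacted, so mRNAs made in spermatocytes and round spermatids are stored and translated later. Mybl1 (A-MYB) and Tcfl5 act in pachytene spermatocytes, Rfx2 and Sox30 in late spermatocytes and round spermatids, and Crem with its LIM-only coactivator Fhl5 (ACT) switches on genes of round spermatids, while Taf7l and Tbpl1 are testis forms or relatives of general factors that assemble at promoters.

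The libraries held 4158034 and 4491749 counts in TSSK2-IP and 9858941 and 3938922 counts in control IgG-IP. The 9 genes took 0.210% and 0.207% of the counts in TSSK2-IP and 0.307% and 0.218% in control IgG-IP. Their lowest count in a library was 164 and the highest 14473, far above a limit of 3 counts, which corresponded to between 0.468 and 0.689 CPM (counts scaled to a common library size) and covers counting error only. The control libraries differed from each other more than the TSSK2-IP libraries did. Of 5433 genes with no fewer than 100 counts in any library, 35.3% were at least 2-fold higher in control replicate 1 than in control replicate 2, and 0% differed 2-fold between the TSSK2-IP replicates. The labels do not say that replicates came from separate animals, so p-values measure only the spread between these libraries, which may be technical. The smallest p that 2 libraries against 2 allow in an exact permutation test, two-sided, is 0.33, and the p-values given here therefore come from a model that borrows the spread from all genes tested.

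None of the 9 mRNAs passed the thresholds between TSSK2-IP and control IgG-IP, which were a 2-fold change and a Benjamini-Hochberg adjusted p of 0.05 by edgeR's quasi-likelihood test. In TSSK2-IP, 0 of 9 were higher and 0 of 9 were lower, where 0.693% of the 14722 genes tested were higher and 0% were lower. At an unadjusted p under 0.05 the count was also 0 of 9, against 8.34% of all genes higher and 4.89% lower. DESeq2 called 0 of 9 past both thresholds, where it called 139 genes higher and 0 lower among 21267. In DESeq2, 2 of the 9, Rfx2 and Spz1, were lower at an unadjusted p under 0.05, against 4.02% of all genes higher and 5.65% lower. With upper-quartile normalization in edgeR, 3 of the 9, Rfx2, Spz1 and Tcfl5, were lower at that p, against 5.91% higher and 8.84% lower. The log2 fold change was above 0 for 2 genes and below 0 for 7, with a median of -0.28 beside -0.02 over all genes tested. In normalized CPM, 1 gene, Crem, had higher values in both TSSK2-IP libraries than in either control library, and the opposite held for 3 genes, Rfx2, Tcfl5 and Spz1, while the groups overlapped for the other 5. Over all genes tested, 27.3% lay above and 21.6% below. These order counts depended on the scaling. With upper-quartile normalization 1 of the 9 lay above and 6 lay below, against 22.4% and 26.7% of all genes tested, and without a filter on low counts 2 lay above and 1 below, against 22% and 21.4%. The values are of RNA recovered by IP from mixed germ cells. Differences in recovery, in cell numbers and in RNA per cell cannot be told apart in them.

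**Figure D1:**
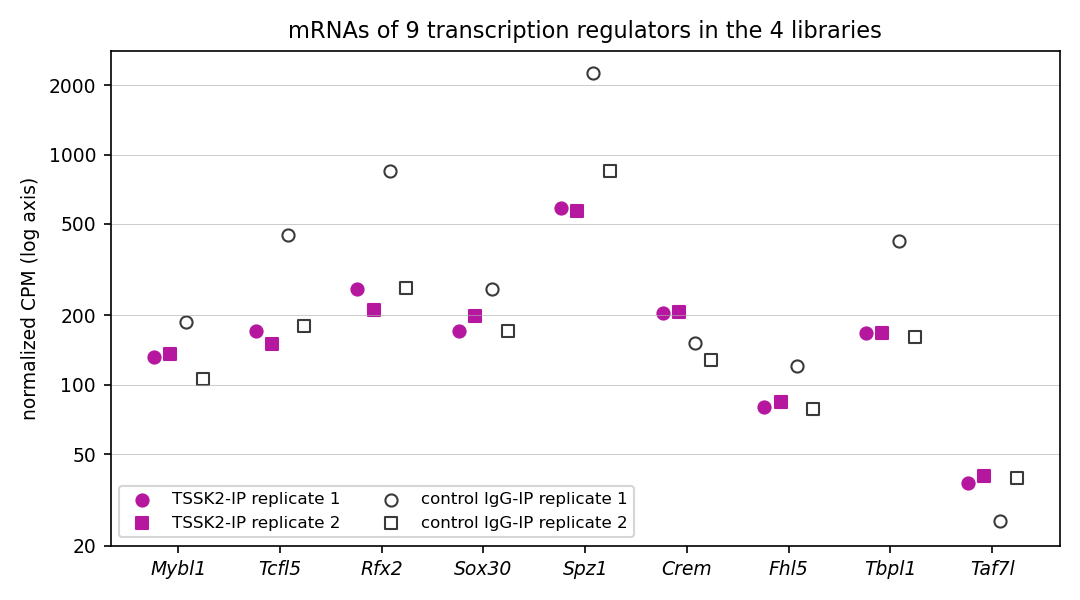
Normalized CPM of the 9 mRNAs in each of the 4 libraries, on a log axis, with a symbol for each library and no error bars. The TSSK2-IP libraries lie within 0.30 of each other on the log2 scale for every gene, and control replicate 1 stands above the rest for Spz1 (2258 CPM), Rfx2 (852.4), Tcfl5 (445.8) and Tbpl1 (419.5).

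Mybl1 (ENSMUSG00000025912, GRCm38 chr1:9667415-9700209, minus strand) encodes the MYB factor that drives meiotic genes and pachytene piRNA precursors in spermatocytes. Its mRNA stood at 131.8 and 136.6 CPM in TSSK2-IP and at 186.8 and 105.7 CPM in control IgG-IP. The TSSK2-IP values lay between those of the control libraries. TSSK2-IP differed from control by -0.12 on the log2 scale (SE 0.49, n = 2 per group, adjusted p = 0.934 by edgeR's quasi-likelihood test), with a 95% interval from -1.18 to 0.93. Tcfl5 (ENSMUSG00000038932, GRCm38 chr2:180621956-180642708, minus strand), a basic helix-loop-helix factor of spermatocytes and round spermatids, had 171.7 and 150.9 CPM in TSSK2-IP against 445.8 and 180.8 CPM in control IgG-IP. All of its TSSK2-IP values were below the control values, but the second control library was close to them. The log2 fold change of Tcfl5 was -0.96 (SE 0.59, adjusted p = 0.479 by edgeR), with an interval from -2.23 to 0.31.

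Rfx2 (ENSMUSG00000024206, GRCm38 chr17:56775897-56831013, minus strand) encodes a winged-helix factor that binds the X-box motif and is needed for spermatid genes of the cilium and flagellum. Its mRNA stood at 259.8 and 211.6 CPM in TSSK2-IP and at 852.4 and 264.0 CPM in control IgG-IP. Control replicate 1 was 3.23-fold above control replicate 2, which lay just above the TSSK2-IP libraries. For Rfx2 the log2 fold change was -1.24 (SE 0.70, adjusted p = 0.435 by edgeR), the smallest adjusted p of the 9 genes, with an interval from -2.74 to 0.25. Sox30 (ENSMUSG00000040489, GRCm38 chr11:45980310-46017994, plus strand), an HMG-box factor required for germ cells to become mature spermatids, had 171.4 and 199.0 CPM in TSSK2-IP and 259.8 and 170.5 CPM in control IgG-IP. Its groups overlapped, and the log2 fold change was -0.22 (SE 0.53, adjusted p = 0.882 by edgeR). Spz1 (ENSMUSG00000046957, GRCm38 chr13:92574636-92576172, minus strand, 1 exon), a testis protein with a basic helix-loop-helix and a leucine zipper, had 585.9 and 569.9 CPM in TSSK2-IP against 2258 and 846.9 CPM in control IgG-IP. Both TSSK2-IP values were below both control values, which themselves differed 2.67-fold. For Spz1 the log2 fold change was -1.43 (SE 0.85, adjusted p = 0.467 by edgeR), with an interval from -3.25 to 0.40.

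Crem (ENSMUSG00000063889, GRCm38 chr18:3266048-3337748, minus strand) encodes both activators and repressors of promoters that carry a cAMP response element (CRE), from 39 annotated transcripts that a count per gene does not separate. It was the only gene of the 9 with both TSSK2-IP libraries above both control libraries, at 205.4 and 207.8 CPM against 152.3 and 128.2 CPM. The TSSK2-IP mean was 206.6 ± 1.66 CPM and the control mean 140.2 ± 17.0 CPM (SD, n = 2 each). For Crem the log2 fold change was 0.56 (SE 0.50, adjusted p = 0.621 by edgeR), with an interval from -0.51 to 1.62. Fhl5 (ENSMUSG00000028259, GRCm38 chr4:25199908-25242876, minus strand), which binds CREM and raises its activity in spermatids, had 80.0 and 83.9 CPM in TSSK2-IP and 120.6 and 78.8 CPM in control IgG-IP. Its TSSK2-IP libraries lay between the control libraries, and the log2 fold change was -0.28 (SE 0.44, adjusted p = 0.798 by edgeR).

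Taf7l (ENSMUSG00000009596, GRCm38 chrX:134460118-134476490, minus strand) encodes a germ cell relative of TAF7, a subunit of the general factor TFIID. Its mRNA had 37.5 and 40.0 CPM in TSSK2-IP and 25.6 and 39.3 CPM in control IgG-IP. It was the only gene of the 9 that was lower in control replicate 1 than in control replicate 2, and the log2 fold change was 0.26 (SE 0.40, adjusted p = 0.798 by edgeR). Tbpl1 (ENSMUSG00000071359, GRCm38 chr10:22703879-22731938, minus strand), a relative of the TATA-binding protein that spermatids need to mature, had 168.5 and 168.2 CPM in TSSK2-IP and 419.5 and 161.5 CPM in control IgG-IP. The TSSK2-IP libraries matched each other closely and lay near control replicate 2. The log2 fold change of Tbpl1 was -0.79 (SE 0.59, adjusted p = 0.552 by edgeR), with an interval from -2.05 to 0.48.

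The spread within the control group was large beside these fold changes. The log2 difference between the control libraries exceeded that between the TSSK2-IP libraries for 9 of 9 genes, as it did for 90.1% of the 5433 genes above. The median size of that difference was 0.82 in control IgG-IP and 0.07 in TSSK2-IP, beside 0.82 and 0.13 over those 5433 genes. For 7 of 9 genes the difference between the control libraries was also larger than the log2 fold change itself. Control replicate 1 was above control replicate 2 for 8 of 9 genes and at least 2-fold above for 4, namely Rfx2, Spz1, Tbpl1 and Tcfl5. At least 2-fold above were also 35.3% of those 5433 genes. The TSSK2-IP mean lay within 0.3 of control replicate 2 on the log2 scale for 6 of 9 genes. The shares of all genes for the counts of 7, 8 and 6 were not computed, so none of these counts can be called a trait of these genes.

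**Figure D2:**
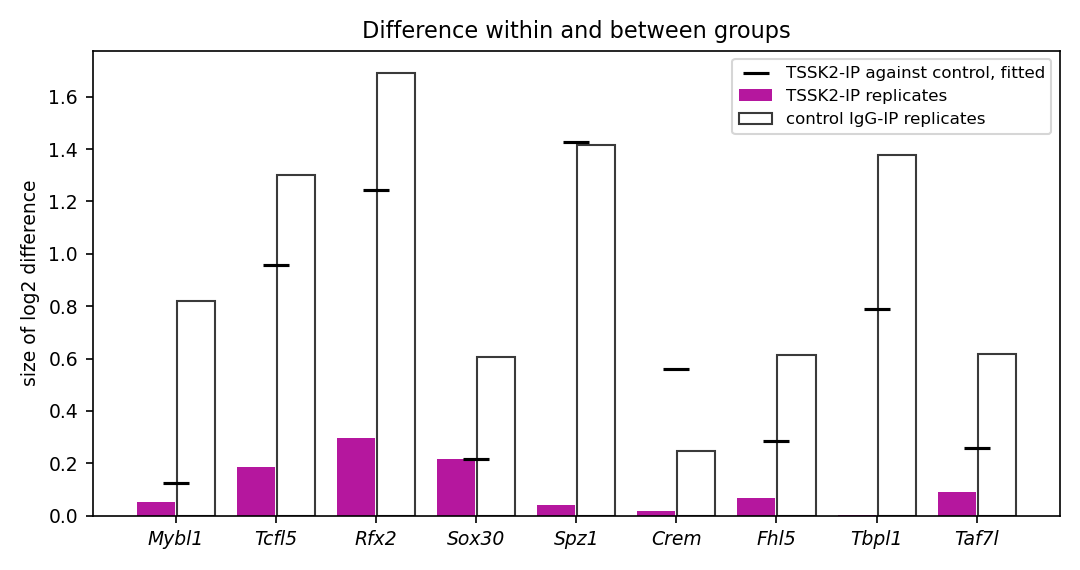
Size of the log2 difference between the 2 replicates of each group for each of the 9 genes, as bars that start at 0. The control bar is the longer one for every gene, with a median of 0.82 against 0.07 for TSSK2-IP, and the TSSK2-IP bar of Tbpl1 is too short to see.

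The values depended on which control library was used. Without control replicate 2, 0 genes were higher and 4 were lower past both thresholds, against 17.9% higher and 17.4% lower among all genes tested. The 4 genes were Rfx2 with a log2 fold change of -1.92, Spz1 with -2.04, Tcfl5 with -1.54 and Tbpl1 with -1.39. Without control replicate 1, 0 genes passed in either direction, against 5.38% of all genes higher and 2.56% lower, and the values of the same 4 genes were -0.11, -0.50, -0.11 and 0.12. By adjusted p alone, without the fold threshold, all 9 genes were at 0.05 or less without control replicate 2, 2 of them higher (Crem and Taf7l) and 7 lower, against 23.6% of all genes higher and 27% lower. Without control replicate 1 this held for 1 higher gene, Crem, and 1 lower gene, Spz1, against 11.7% and 5.12%. Crem kept its direction in both fits, at 0.74 without control replicate 1 and 0.37 without control replicate 2, and neither value reached a 2-fold change. Such fits assume that the remaining control library varies like the TSSK2-IP libraries. The 2 groups did not vary alike. For the 9 genes, the median log2 difference between replicates was 0.82 in control IgG-IP and 0.07 in TSSK2-IP. The adjusted p-values of these fits leave out the spread between control libraries. Counts of genes based on them are therefore not evidence of a difference between the groups.

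**Figure D3:**
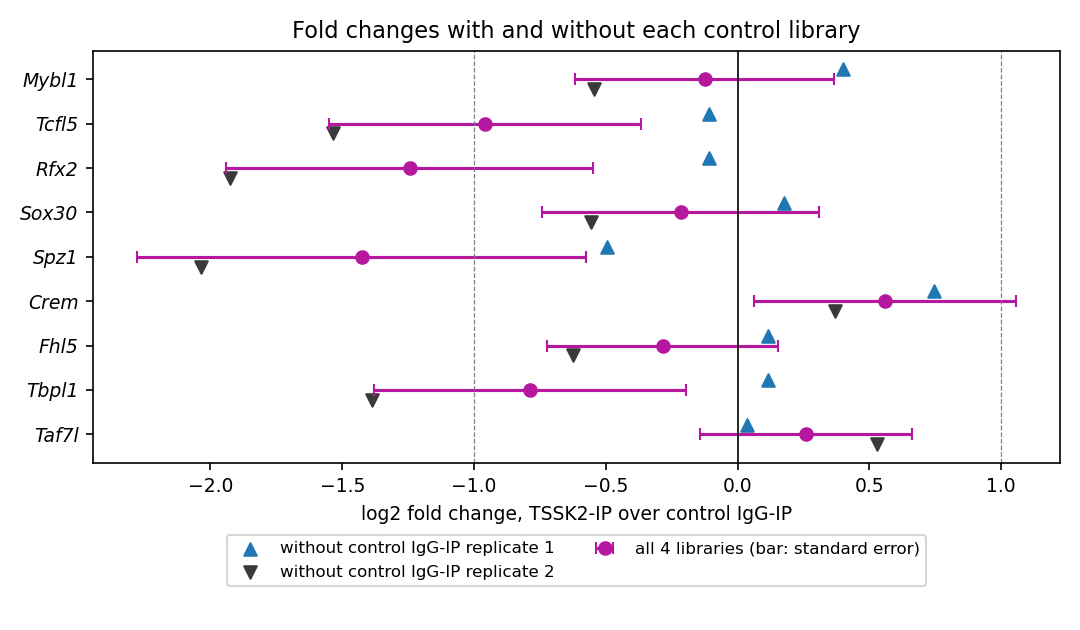
Log2 fold change of TSSK2-IP over control IgG-IP for the 9 genes in all 4 libraries (circles, bars are standard errors) and with either control library left out (triangles), with dashed lines at a 2-fold change. Leaving out control replicate 2 moves Spz1 to -2.04 and leaving out control replicate 1 moves it to -0.50. Crem is at 0.37 and 0.74, above 0 as the order of its libraries requires.

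The ratio of 2 mRNAs counted in the same library does not depend on the scaling between libraries. Crem was taken as the denominator after its values were seen. The count ratio of Spz1 to Crem was 2.85 (95% exact binomial interval 2.65 to 3.07) and 2.74 (2.56 to 2.94) in TSSK2-IP, against 14.8 (13.9 to 15.8) and 6.61 (6.04 to 7.23) in control IgG-IP. That of Rfx2 to Crem was 1.26 and 1.02 against 5.60 and 2.06. Relative to Crem, 7 of the 8 other genes were lower in both TSSK2-IP libraries than in both control libraries and Taf7l overlapped, where 48.8% of all other genes tested were lower and 8.4% higher by the same rule.

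Per length, which allows levels of different genes to be compared roughly, Spz1 was the most abundant and Taf7l the least abundant in all 4 libraries. The length was that of all annotated exons of a gene together. It can exceed that of an mRNA where a gene has many transcripts, as Crem with 39, so the order depends partly on the annotation. The mean over the 4 libraries was 693 CPM per kb of exon for Spz1 (371 to 1469), 77.6 for Fhl5, 75.0 for Tcfl5, 70.2 for Tbpl1, 66.8 for Sox30, 54.3 for Rfx2, 29.4 for Crem, 26.0 for Mybl1 and 15.9 for Taf7l (11.4 to 17.8). The ranges of neighbours in this order overlapped, except between Spz1 and Fhl5 and between Mybl1 and Taf7l. The order between these ends differed by group. By the group means, Fhl5 was at rank 2 in TSSK2-IP but 4 in the control, Sox30 at 3 and 6, Tbpl1 at 4 and 3, Tcfl5 at 5 and 2, Crem at 6 and 8, Rfx2 at 7 and 5, and Mybl1 at 8 and 7.

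The relatives and partners of these genes were examined as a list of 28, of which 24 were tested, and 0 passed both thresholds. At an unadjusted p under 0.05, 2 were higher and 0 were lower in edgeR's quasi-likelihood test, against 8.34% and 4.89% of all genes tested. The median log2 fold change was 0.18. Creb1, the widely expressed relative of Crem, had 65.5 and 65.1 CPM in TSSK2-IP against 23.9 and 26.2 CPM in control IgG-IP. Its control libraries were close to each other, and its log2 fold change was 1.38 (SE 0.40, adjusted p = 0.173 by edgeR). Mybl2, the MYB factor of dividing cells, had 48.7 and 46.2 CPM against 12.6 and 30.6 CPM, a log2 fold change of 1.15 (adjusted p = 0.321 by edgeR). Taf7l2, a relative of Taf7l, had 131.0 and 134.3 CPM against 461.2 and 166.1 CPM, a log2 fold change of -1.24 (adjusted p = 0.389 by edgeR).

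Pairs of relatives were then compared as count ratios within a library, with the pairs picked after their values were seen. The ratio of Crem to Creb1 was 3.14 and 3.19 in TSSK2-IP against 6.38 and 4.90 in control IgG-IP, so the ratio was lower in TSSK2-IP although the CPM of Crem was higher. The ratio of Gtf2a1l, the germ cell form of a TFIIA subunit that partners TBPL1, to its general form Gtf2a1 was 1.14 and 1.05 against 5.20 and 2.46. For Tbpl1 to Tbp the TSSK2-IP ratios, 1.58 and 1.51, had counting intervals that overlapped that of control replicate 2, at 1.67 (1.48 to 1.89), and lay below control replicate 1, at 2.20.

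**Figure D4:**
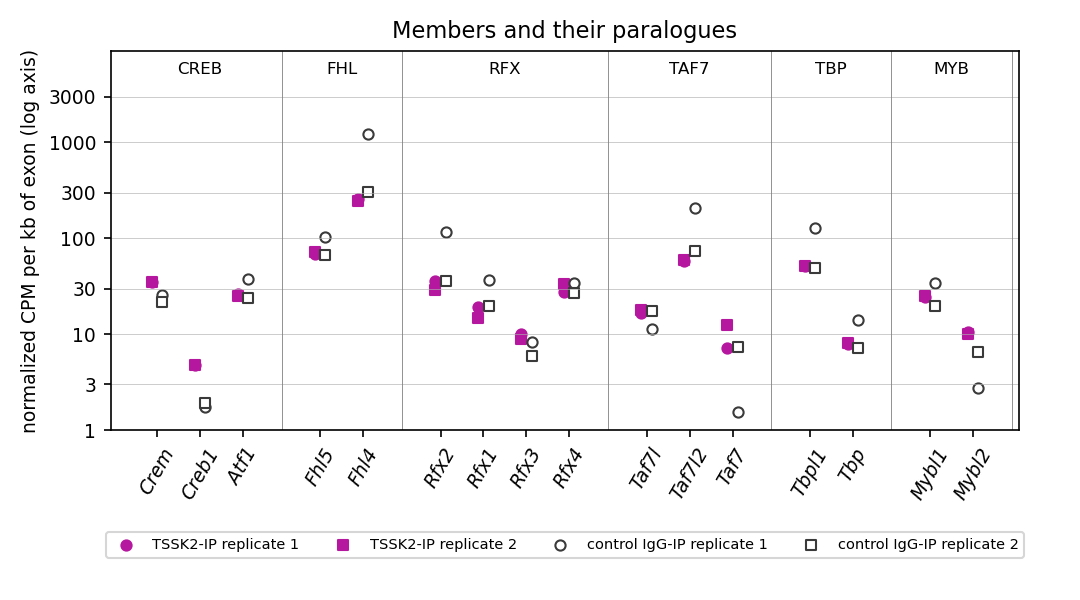
Normalized CPM per kb of exon, on a log axis, for members of 6 factor families, with a symbol for each of the 4 libraries. Crem, Creb1, Rfx3 and Mybl2 have both TSSK2-IP libraries above both control libraries. Control replicate 1 is far above the others for Fhl4 (1226 CPM per kb against 303.8 in control replicate 2), Rfx2, Taf7l2 and Tbpl1.

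A list of 22 other regulators of meiotic and haploid cells was tested in full, and 0 passed both thresholds. Its median log2 fold change was -0.49, with both TSSK2-IP libraries above both control libraries for 3 genes and below them for 9. At an unadjusted p under 0.05 in edgeR's test, against shares of 8.34% higher and 4.89% lower over all genes tested, 1 was higher and 1 was lower. These were Egr4, a zinc finger factor of germ cells, at 1.57 (adjusted p = 0.360 by edgeR), and Zfp541, a zinc finger protein of pachytene spermatocytes, at -1.65 (adjusted p = 0.350). Zmynd15, a repressor in spermatids, stood at -1.15 (adjusted p = 0.392 by edgeR). Of 8 spermatid mRNAs that depend on Crem, 0 passed and 0 had an unadjusted p under 0.05, with a median log2 fold change of -0.05. Among them, Acr, the acrosomal protease, stood at -0.65 (adjusted p = 0.562 by edgeR), Prm2, a protamine that packs sperm DNA, at -0.86 (adjusted p = 0.697) and Tnp1, a transition protein, at 0.22 (adjusted p = 0.894).

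Summed markers of spermatids and spermatocytes were highest in control replicate 1, and those of the other 4 cell groups were lowest there. The 8 spermatid markers summed to 5029 and 4853 CPM in TSSK2-IP and to 19160 and 7215 CPM in control IgG-IP, and the 8 spermatocyte markers to 2447 and 2530 CPM against 4494 and 2390 CPM. Sertoli cell markers summed to 56.8 and 40.5 CPM against 19.5 and 45.0 CPM, and Leydig cell markers to 46.9 and 42.8 CPM against 19.97 and 42.3 CPM. Spermatogonial markers, at 88.1 and 75.4 against 67.7 and 85.9 CPM, and those of peritubular, vessel and blood cells, at 36.3 and 40.3 against 27.5 and 49.9 CPM, were also under 100 CPM. Of the defining markers, 3 had no count in at least 1 library, namely Nanos3 of spermatogonia, Insl3 of Leydig cells and Hba-a1 of blood. Of the genes in these lists, 0 passed both thresholds. The larger sums were carried by a few abundant mRNAs, with Odf2 at 10700, Akap4 at 5879, Ldhc at 2090 and Pgk2 at 1245 CPM in control replicate 1. Single markers did not all follow the sums. Acrv1 and Izumo1 of spermatids and Hormad1 of spermatocytes were lowest in control replicate 1, at 70.2, 38.5 and 31.1 CPM. The spermatogonial marker Gfra1 was highest there, at 14.4 CPM. The part of cell composition in the values of the 9 genes was not tested.

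The mean profile of the 9 genes across the 4 libraries, each gene centred on its own mean, was -0.18 and -0.19 in TSSK2-IP and 0.60 and -0.23 in control IgG-IP on the log2 scale. Among 1990 genes of like abundance, the closest to it were Cab39, Pknox2, Ccdc7a, Catsperg1 and Hbs1l, at Euclidean distances of 0.0368 to 0.0514 over the 4 libraries. Cab39 had 82.3 and 81.4 CPM in TSSK2-IP and 145.6 and 79.5 CPM in control IgG-IP.

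Exons of 3 genes overlap an exon on the opposite strand, and these were the only stretches of 150 bases or more at 97% identity that the 9 genes shared with another gene. For Tcfl5 the overlap is with Col9a3 (234 bases, 7.39% of the Tcfl5 exons), which had 149 and 113 counts in TSSK2-IP and 48 and 95 in control IgG-IP. For Tbpl1 it is with Slc2a12 (407 bases, 12.4%), which had no more than 12 counts in a library. For Crem it is with Gm6225 (472 bases, 8.01%), for which no value was used here. The libraries were directional, but the strand setting of the counting is not given in the sources used here, and reads of overlapping genes cannot be told apart if strand was not used.

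Rfx2 is described as acting downstream of MYBL1, and so the 250 bases upstream of the RefSeq transcription starts were searched on both strands for the core of the MYB site, AACGG or CCGTT. RefSeq windows (GRCm38.p6) were used for 7 of the 9 genes, in 8 windows, and none were used for Crem and Mybl1. The core was found in 14.5% of all 32851 windows and in those of Rfx2, Tcfl5 and Sox30, which are shown because their promoters hold it, with every motif searched for in capitals. An X-box arm, GTTGCC or GGCAAC, which is in 10.4% of all windows, overlaps a MYB core in Rfx2 (CCGTTGCC) and is also in Spz1, and the CRE core TGACG or CGTCA, in 17.8% of all windows, is in Rfx2 farther upstream than the stretch shown.
Rfx2, chr17:56831098-56831188, minus strand: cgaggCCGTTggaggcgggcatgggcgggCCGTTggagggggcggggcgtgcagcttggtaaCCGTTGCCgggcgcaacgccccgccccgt
Tcfl5, chr2:180642701-180642816, minus strand: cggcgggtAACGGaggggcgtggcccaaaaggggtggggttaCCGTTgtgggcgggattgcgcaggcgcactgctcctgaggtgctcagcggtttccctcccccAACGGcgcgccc
Sox30, chr11:45980250-45980290, plus strand: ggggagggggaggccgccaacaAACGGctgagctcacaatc
A match describes these letters and is not a measured binding site, and a window without a match says nothing of the factor. The counts measure mRNA in an IP and not the activity of these promoters.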

How the data were processed

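RNA recovered by TSSK2-IP and control IgG-IP from mouse germ cells was measured in 2 libraries per group. Per the submitters' processing notes, the authors used Trimmomatic 0.39 for trimming, STAR 2.7.10a for mapping to GRCm38 and featureCounts 2.0.3 for counting. They deposited raw counts per gene, without normalization. The strand setting and the handling of reads that map to several places are not given in the sources used here.

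Gene names, exons and lengths came from GENCODE vM21 on GRCm38, which held 21894 of the 21936 identifiers. Counts were fitted in edgeR 4.0.16 (R 4.3.3) with TMM, filterByExpr, glmQLFit and glmQLFTest on 14722 genes, adjusted by Benjamini-Hochberg over all of them, and called where the log2 fold change reached 1 in size and the adjusted p was no more than 0.05. The common dispersion was 0.135. Standard errors were the size of the log2 fold change over the root of F, and 95% intervals from the t distribution with the model's degrees of freedom. Ratios within a library have 95% exact binomial (Clopper-Pearson) intervals, which cover counting error only. Transcripts were searched for sequence in common with other genes by BLAST+ 2.17.0. The fits were tested on simulated data. Replicates differed beyond sampling noise in both groups (chi-square per degree of freedom 3.16 and 71.1), so none was counted as a duplicate.

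The 9 genes and the other lists were chosen with earlier results of these data known. Named beside the 9 genes were the 3 genes with the smallest p of each other list except the markers, and the 5 genes nearest to the mean profile; genes in ratios or overlaps were chosen after their values were seen. The alternatives tried were upper-quartile normalization, DESeq2 1.42.0, its size factors used in edgeR, 2 other filters, removal of mitochondrially encoded genes and Lars2, the replicate number as a block, and leaving out each library. Libraries of the DDX4-IP were not used here.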

Additional observations from a re-analysis of the deposited data

How the results depend on the processing

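Outside the leaving out of a library, all 126 values of 18 named genes under 7 settings kept their direction and stayed uncalled by both thresholds together. The fold threshold alone was crossed by Tcfl5, at -0.96, which was -1.09 with DESeq2, -1.11 with its size factors and -1.03 without a filter, and by Zmynd15, at -1.15, which was -0.9991 with the replicate block. Leaving out each library in turn gave 0 to 4 genes of the 9 that were lower past both thresholds, with 4 without control IgG-IP replicate 2, and a median log2 fold change from -0.63 to 0.11. Of these fits, only that without control IgG-IP replicate 1 turned directions. They were those of Fhl5 (-0.63 to 0.11 over the fits), Sox30 (-0.56 to 0.18), Tbpl1 (-1.39 to 0.12) and Mybl1 (-0.55 to 0.40). The cause was not tested. Of the 9 genes, the number with both TSSK2-IP libraries above both control libraries was 2 without a filter on low counts, against 22% of all genes. The number below was 6 with upper-quartile normalization, against 26.7% of all genes, and 1 without a filter, against 21.4%. DESeq2's size factors moved the median of all genes from -0.02 to -0.14 and that of the 9 genes from -0.28 to -0.42. Over all genes, 102 were called higher, against 20 with upper-quartile normalization, 29 with at least 10 counts in every library, and 283 higher and 24 lower without a filter. Deviations of libraries with the same replicate number correlated at 0.126 over 14722 genes, and the labels do not say what a number stands for. The paper's co-IP method splits the lysate between TSSK2 and IgG beads, and its cross-linked IP refers to that method. Libraries with the same number may therefore share a lysate, which the sources do not state. With the replicate number as a block, 274 genes were called higher and 3 lower, 0 of the 9 genes were called, their median was -0.25 and their smallest adjusted p from edgeR was 0.748. With 2 libraries per group, standard errors of the 9 genes were 0.40 to 0.85 on the log2 scale, which limits the changes that could be called.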
